A study of Mus musculus with 7 samples.

Results

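The cells described here are the cycling cells with proximal tubule genes, which are the cells that the authors placed in cluster 9 of their 16 clusters of mouse kidney cells. They were chosen by that cluster number, which the deposited matrix gives for each cell, and they numbered 601 of 43745 cells, or 1.37%. The label rests on 4 marks: Mki67, a protein that coats mitotic chromosomes, Cenpf, a kinetochore protein, Top2a, the topoisomerase that untangles replicated DNA, and the long noncoding RNA Lockd. All 4 were higher than in the proximal tubule cluster in each library compared, and the proximal tubule markers were present beside them in nearly every cell. Whole kidneys of 7 adult C57BL/6 mice aged 4 to 8 weeks were dissociated and their cells profiled by a droplet method that counts the 3′ ends of transcripts with molecular identifiers (UMIs). There were 3 reporter mice, a single one of each line, among them Cdh16CremTmG and SclCremTmG, and 4 mice were labelled WT. In these lines the Cre recombinase is driven by the promoter of a single gene, such as the tubule gene Cdh16 or the blood and endothelial gene Scl, and switches a membrane reporter, mTmG. The matrix tells its libraries apart by the number from 1 to 7 that ends each barcode, and which mouse gave which number is not stated, so genotypes were not compared and every library is given by its own value.

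The proximal tubule reclaims most of the filtered glucose, amino acids, phosphate and protein, and in the healthy adult kidney few of its cells divide at any moment. A dividing cell makes the replication enzymes and histones in S phase, and the cyclins, kinases, kinesins and kinetochore proteins of mitosis from late S phase until the chromosomes separate. Transcription of the S phase set is driven by E2F factors and that of the mitotic set by the factors B-Myb and FoxM1, which act with the MuvB complex at a promoter element called CHR, often beside CCAAT boxes bound by NF-Y.

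Most of cluster 9 came from library 5. That library held 552 of its cells (91.8%), while libraries 1, 2, 3, 4, 6 and 7 held 9, 28, 2, 3, 6 and 1. In library 5 the cluster made up 3.9% of cells (95% Wilson interval 3.6 to 4.24), and in the other libraries between 0.0187% (library 7) and 0.553% (library 2). Without library 5 its share of all cells was 0.165%. Set against proximal tubule cells, library 5 had 7.17 cluster 9 cells per 100 cells of cluster 3, the cluster led by proximal tubule genes, and the others had 0.0251 to 0.796. The intervals cover counting error only. The 2 cells of library 3, 3 of library 4 and 1 of library 7 were too few to compare, and the expression values below come from library 5 and from libraries 1, 2 and 6, whose 43 cells were summed. These held 2268689 and 140054 cluster 9 UMIs, against 25388179 and 29906235 in cluster 3.

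Cycling cells were also counted by their transcripts, a count that is nearly the cluster itself, since 466 of the 486 such cells of library 5 in clusters 2 to 9 lay in cluster 9. Cells with UMIs of at least 3 of 15 cycling marker genes made up 3.6% of the cells of clusters 2 to 9 in library 5 (3.3 to 3.93), against 0.0391% to 0.416% in the other libraries. Of the 597 such cells in the whole matrix, 501 lay in cluster 9, 42 in cluster 16, 23 among the 39316 cells of tubule and collecting duct clusters 3 to 8, and 31 elsewhere. In library 5 the tubule and collecting duct clusters held 20 such cells among 12913. Within cluster 9, 325 cells had 6 or more of the 15 genes, 98 had 1 or 2 of them and 2 had none.

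**Figure D1:**
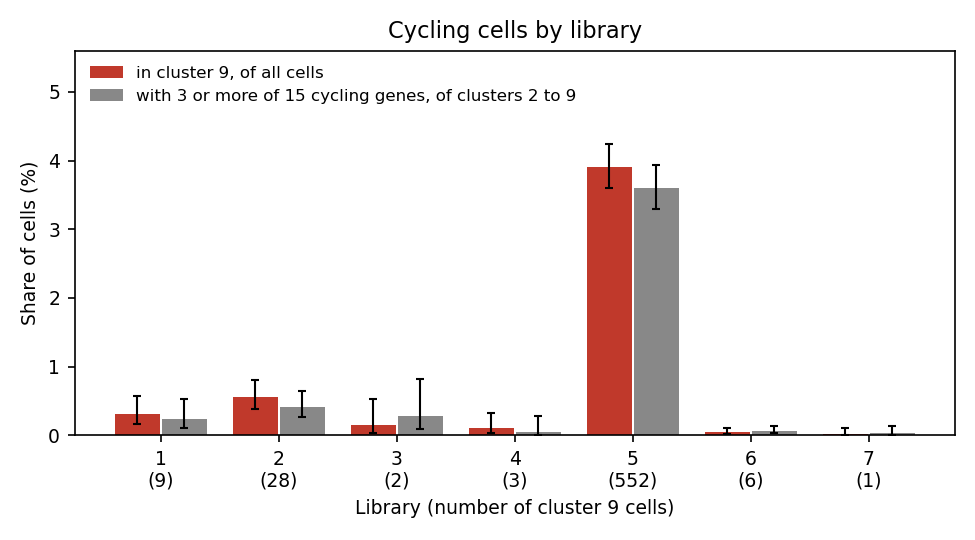
Share of cells in cluster 9 among all cells (red) and of cells with UMIs of 3 or more of 15 cycling genes among clusters 2 to 9 (grey), in percent, for each of the 7 libraries; error bars are 95% Wilson intervals. Library 5 stands at 3.9% and 3.6%, and no other library exceeds 0.553% and 0.416%.

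Library 5 also differed from libraries 1 to 4 and 6 in genes that do not belong to the cell cycle. In its cluster 3 cells Kap, the kidney androgen-regulated protein, stood at 1628 CPM (counts scaled to 1e6 UMIs), against 10287 to 40181 in libraries 1 to 4 and 6 and 166 in library 7. Slc7a13, an amino acid transporter of the late proximal tubule that is higher in male mice, stood at 23.6 CPM there, against 160 to 577 in libraries 1 to 4 and 6 and 0.752 in library 7. The Y-linked gene Ddx3y was present in library 5 at 61.8 CPM and Xist, made from the inactive X chromosome, was near 0 at 0.236 CPM, much as in libraries 1 to 4 and 6, whereas library 7 had 3338 CPM of Xist and no Ddx3y. The part of these differences in the number of cycling cells was not tested.

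In the 4 libraries with 5 or more of them, cluster 9 cells had more UMIs than cluster 3 cells of the same library. The median was 3863 UMIs per cell against 1631 in library 1, 2823 against 2471.5 in library 2, 3738.5 against 2905 in library 5, and 2052.5 against 1782.5 in library 6. It was thus 1.14 to 2.37 times as high and higher in 4 of 4 libraries (exact sign-flip permutation test over libraries, two-sided p = 0.125, the smallest that 4 libraries allow). The mean log2 ratio of 0.50 became 0.25 without library 1. The few cells of libraries 3 and 4, outside the test, went the other way, with medians of 2002.5 UMIs in cluster 9 against 2473 in cluster 3 and of 2126 against 2404. The median share of mitochondrial UMIs was 15.3% in cluster 9 and 11.6% in cluster 3 of library 5, and 13% and 17%, 19% and 19.3%, and 18.2% and 17.5% in libraries 1, 2 and 6.

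Levels were compared within each library, as the UMIs seen for a gene in cluster 9 over the UMIs expected there from the cluster 3 profile. Because the authors formed the clusters from these same counts, the ratios describe the cluster and carry no p-value; their 95% intervals cover counting error only. A gene was counted when it had at least 20 UMIs seen or expected in library 5 and 5 in libraries 1, 2 and 6 together, and called when it differed at least 2-fold in the same direction in both. Of 4280 counted genes, 377 (8.81%) were higher and 49 (1.14%) lower in cluster 9. The minimum was met only through the UMIs of cluster 9 for 306 of the 377, genes that therefore had to be higher, and only through those expected from cluster 3 for 27 of the 49, which had to be lower. Among the 3057 genes that met it by their cluster 3 level, 71 were higher and 49 lower. Of the genes past 2-fold in library 5, 86.3% of those higher and 63.6% of those lower also passed in the other libraries, and 1 gene, Prima1, went the opposite way (0.465-fold in library 5 and 2.95-fold in the others; named after its values were seen). Without library 2, which gives most of the small libraries' UMIs, 1890 genes were counted, 164 higher and 31 lower. With edgeR TMM factors for scaling the split was 251 higher and 223 lower, so 53% of called genes were higher in place of 88.5%, and the median log2 ratio of the counted genes in library 5 was -0.154 in place of 0.138.

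**Figure D2:**
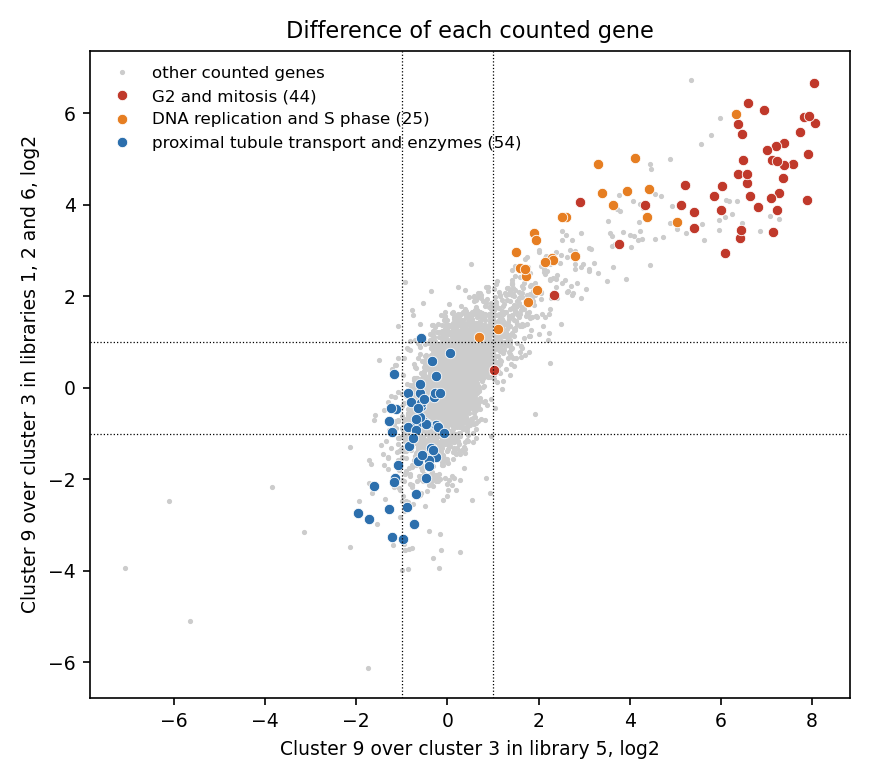
Each counted gene by its log2 ratio, cluster 9 over cluster 3, in library 5 (x axis) and in libraries 1, 2 and 6 summed (y axis), with a pseudocount of 0.5 UMI; dotted lines mark 2-fold. The 44 counted G2 and mitosis genes (red) and the 25 S phase genes (orange) lie to the upper right and the 54 proximal tubule genes (blue) mostly left of and below 0.

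The 4 marks were at high levels in each library compared. All 4 met the minimum only through cluster 9, and so could only be called higher. Mki67 had 170, 254, 570 and 280 CPM in cluster 9 of libraries 1, 2, 5 and 6, against 4.88, 4.74, 2.76 and 2.51 CPM in cluster 3. Cenpf had 113, 300.0, 532 and 447 CPM in cluster 9, against 1.74, 1.21, 6.14 and 2.16 CPM in cluster 3. Top2a had 396, 403, 517 and 168 CPM in cluster 9, against 0, 0.202, 1.73 and 0.234 CPM in cluster 3. The lowest value of each gene in cluster 9 was above its highest value in cluster 3. In library 5 the ratio was 207-fold for Mki67 (95% interval 163 to 267), 86.5-fold for Cenpf (73.2 to 103) and 298-fold for Top2a (221 to 413).

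Lockd, which is transcribed just downstream of the gene of the cell cycle inhibitor Cdkn1b, had 509, 726, 1247 and 1454 CPM in cluster 9, against 3.48, 3.73, 30.6 and 4.09 CPM in cluster 3. Its level in cluster 3 was higher in library 5 than in the others. The ratio in library 5 was 40.8-fold (37.6 to 44.2). Cdkn1b itself had 57.7 CPM in cluster 9 and 25 CPM in cluster 3 of library 5, and in libraries 1, 2 and 6 only 3 UMIs were seen in cluster 9 where 2.16 were expected. In the GENCODE vM21 annotation of GRCm38, Mki67 lies on the minus strand at chr7:135689784-135716361, Cenpf on the minus strand at chr1:189640606-189688086, Top2a on the minus strand at chr11:98992943-99024189, and Lockd on the plus strand at chr6:134929092-134956798, with Cdkn1b before it at chr6:134920401-134925513.

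**Figure D3:**
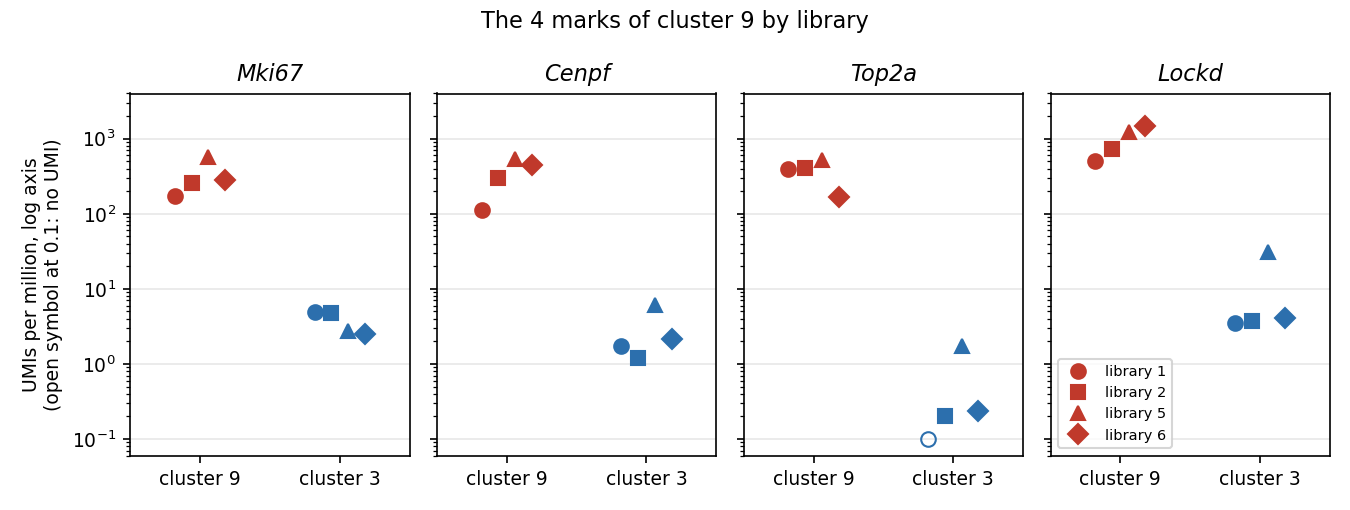
Level of the 4 marks in cluster 9 (left, red) and cluster 3 (right, blue) of the same library, in CPM on a log axis, with each symbol a library; the open symbol stands for no UMI. Every red symbol lies above every blue one, with Lockd in cluster 3 highest in library 5 at 30.6 CPM.

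Of the gene lists, that of G2 and mitosis had the highest summed ratio in each library. All 60 genes of the G2 and mitosis list had more UMIs than expected in cluster 9 of library 5, and their summed level was 6018, 6880, 8756 and 6487 CPM in cluster 9 of libraries 1, 2, 5 and 6, against 261, 248, 267 and 221 CPM in cluster 3. That is 23.1, 27.7, 32.8 and 29.4 times as high, so the small libraries and library 5 had ratios of like size. Of the 44 members counted, 43 were called higher and none lower, beside the 8.81% and 1.14% over all counted genes, but 42 of the 43 met the minimum only through cluster 9. The mitotic kinase Cdk1 had 134 CPM in cluster 9 and 0.748 CPM in cluster 3 of library 5, and 16 UMIs in the other libraries where 0.0257 were expected. Its partner cyclins Ccna2 and Ccnb1 were 185-fold (121 to 295) and 104-fold (72.9 to 153) higher in library 5. Cdc20, which activates the ubiquitin ligase that ends mitosis, was 157-fold higher (104 to 245), and Ube2c, the ubiquitin-conjugating enzyme of that ligase, 196-fold (137 to 290). Birc5, or survivin, of the chromosomal passenger complex had 339 CPM in cluster 9 and 2.52 CPM in cluster 3. The uncalled member was Lbr, a receptor of the nuclear lamina, at 2.03-fold in library 5 and 6 UMIs where 4.44 were expected elsewhere.

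All 15 called genes with the largest ratios in library 5 met the minimum only through cluster 9, and so could only be called higher. Among them were genes of chromosome segregation, cell separation and DNA repair. They included the spindle and kinetochore genes Dlgap5, Nuf2, Casc5, Hmmr, Ckap2, Ckap2l and Cenpa, the cohesin acetyltransferase Esco2, the genes of cell separation Anln, Prc1 and Kif20a, the mitotic kinase Pbk, Top2a and the DNA repair glycosylase Neil3. The ratios of these genes ran from 222-fold for Neil3 to 582-fold for Dlgap5. The highest are loose, since Dlgap5 and Nuf2 had only 2 UMIs in cluster 3 of library 5, which gives intervals of 157 to 4870 and 143 to 4450. In the small libraries these genes had 5 to 52 UMIs in cluster 9 where at most 0.0638 were expected. All 6 of Dlgap5 came from library 2. The call of Nuf2 was lost without library 1, 2 or 6 and with thinned cells, and those of Dlgap5, Anln, Casc5, Ckap2, Ckap2l, Kif20a, Cenpa and Neil3 were lost without library 2.

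The genes of DNA replication were higher too, and unevenly so across libraries. All 39 genes of the S phase list had more UMIs than expected in library 5, and the summed level was 4520, 2409, 1495 and 1174 CPM in cluster 9 of libraries 1, 2, 5 and 6, against 252, 269, 287 and 228 CPM in cluster 3. The ratio was 18 in library 1, 8.95 in library 2, 5.21 in library 5 and 5.16 in library 6. Of 25 members counted, 24 were called higher, each counted only through cluster 9, and none lower, beside 8.81% and 1.14% over all counted genes. Rrm2, the subunit that limits the making of deoxynucleotides, was 88.9-fold higher in library 5 (66.5 to 121). Pcna, the sliding clamp of DNA polymerase, had 283, 138, 36.6 and 112 CPM in cluster 9 of libraries 1, 2, 5 and 6, against 13.6, 8.87, 5.87 and 5.84 CPM in cluster 3. The helicase subunits Mcm2 and Mcm6 were 3.15-fold (1.97 to 4.87) and 3.78-fold (2.86 to 4.94) higher in library 5. All 5 UMIs of Mcm2 in the small libraries came from library 2, and its call was lost without that library, with thinned cells and without recurring barcodes. Set side by side, the S phase list had 160 UMIs and the mitosis list 213 in cluster 9 of library 1, 209 and 597 in library 2, 3391 and 19864 in library 5, and 21 and 116 in library 6.

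In part of these genes the letters before the transcription start hold matches to the elements named above. RefSeq promoter windows on GRCm38.p6 were searched on both strands over the 250 bases before the start for CCAAT, for the CHR letters TTTGAA and TTCGAA, and for the E2F letters TTTGGCGC, TTTCCCGC and TTTCGCGC, each match counted even where it overlapped another. Of the 46 G2 and mitosis genes with a window, 19 (41.3%) held a CHR and 34 (73.9%) a CCAAT box, beside 15.2% and 39.7% of the 11796 genes of the matrix with a window. At least 2 CCAAT boxes together with a CHR stood before 10 of the 46 (21.7%) and before 1.93% of all. E2F letters stood before 7 of 29 S phase genes (24.1%), 3 of 46 G2 and mitosis genes (6.52%) and 3.09% of all. Of 26 proximal tubule transport genes, 6 (23.1%) held a CHR, 7 (26.9%) a CCAAT box and none both a CHR and 2 CCAAT boxes. Of 26 proximal tubule enzyme genes, 5 (19.2%) held a CHR, 11 (42.3%) a CCAAT box and 2 (7.69%) a CHR with at least 2 CCAAT boxes, as did 2 of the 29 S phase genes (6.9%). Promoters of 3 mitotic genes, of Lockd, of an S phase gene and of a proximal tubule gene are shown with the CCAAT, CHR and E2F letters in capitals. They are examples and do not stand for their lists.
Mki67, chr7:135716380-135716629, minus strand: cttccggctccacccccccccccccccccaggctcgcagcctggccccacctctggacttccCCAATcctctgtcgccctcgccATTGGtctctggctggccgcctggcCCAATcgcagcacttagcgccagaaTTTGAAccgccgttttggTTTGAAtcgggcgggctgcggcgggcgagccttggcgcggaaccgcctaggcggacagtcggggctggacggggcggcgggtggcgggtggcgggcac
Top2a, chr11:99024190-99024439, minus strand: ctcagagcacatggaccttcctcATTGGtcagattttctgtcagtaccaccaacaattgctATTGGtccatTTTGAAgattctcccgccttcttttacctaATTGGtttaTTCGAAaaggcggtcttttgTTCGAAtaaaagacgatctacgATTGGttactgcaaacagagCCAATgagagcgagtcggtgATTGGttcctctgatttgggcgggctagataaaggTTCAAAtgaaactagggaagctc
Cdk1, chr10:69352913-69353162, minus strand: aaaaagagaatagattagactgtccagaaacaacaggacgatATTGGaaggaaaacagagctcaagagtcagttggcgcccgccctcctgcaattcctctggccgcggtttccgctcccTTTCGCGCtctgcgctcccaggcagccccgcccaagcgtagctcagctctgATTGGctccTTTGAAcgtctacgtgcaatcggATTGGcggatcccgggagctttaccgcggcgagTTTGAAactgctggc
Lockd, chr6:134928842-134929091, plus strand: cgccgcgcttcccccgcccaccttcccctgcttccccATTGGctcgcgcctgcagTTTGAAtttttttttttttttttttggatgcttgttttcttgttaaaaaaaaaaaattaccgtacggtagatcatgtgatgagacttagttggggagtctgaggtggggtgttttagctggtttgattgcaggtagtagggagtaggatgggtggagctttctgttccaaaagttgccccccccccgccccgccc
Mcm6, chr1:128359706-128359955, minus strand: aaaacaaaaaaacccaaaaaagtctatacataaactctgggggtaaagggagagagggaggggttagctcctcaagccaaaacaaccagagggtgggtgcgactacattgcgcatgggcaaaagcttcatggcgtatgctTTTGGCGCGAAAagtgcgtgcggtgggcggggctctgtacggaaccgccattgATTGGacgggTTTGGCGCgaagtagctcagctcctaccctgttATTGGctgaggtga
Slc34a1, chr13:55399398-55399647, plus strand: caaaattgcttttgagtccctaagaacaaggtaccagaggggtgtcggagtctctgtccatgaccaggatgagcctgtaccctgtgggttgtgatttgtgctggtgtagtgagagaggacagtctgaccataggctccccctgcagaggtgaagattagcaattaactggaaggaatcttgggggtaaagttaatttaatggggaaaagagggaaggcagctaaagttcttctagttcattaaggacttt
Mki67 had 3 CCAAT boxes, the nearest beginning 141 bases before the start, and 2 CHR matches that began 116 and 98 bases before it. Top2a had 6 CCAAT boxes and 4 CHR matches, and Cdk1 had 3 CCAAT boxes, 2 CHR matches and the E2F letters. Lockd had 1 CCAAT box and 1 CHR match. Mcm6, a helicase subunit, had 3 E2F matches and 2 CCAAT boxes but no CHR, and the window of Slc34a1, the sodium phosphate cotransporter of the proximal tubule, had no match of the 3 kinds. The windows of Cenpf and Ccnb1, not shown, had 2 CCAAT boxes each and no CHR. Those of Cdc20 and Ube2c had 2 and 6 CCAAT boxes and 1 CHR match each. The window of the S phase gene Rrm2 had 1 CCAAT box and neither a CHR nor an E2F match. Such matches describe the letters and do not show that a factor was bound.

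Structural genes of dividing cells followed, and the numbers called below stand beside 8.81% higher over all counted genes. The summed level of histone and chromatin protein genes was 7487, 6142, 5397 and 7493 CPM in cluster 9 of libraries 1, 2, 5 and 6, against 1012, 1064, 973 and 869 CPM in cluster 3, and 7 of 8 counted members were called higher, 2 of them counted only through cluster 9. The variant histone H2afz stood at 2267 CPM in cluster 9 and 297 CPM in cluster 3 of library 5, a ratio of 7.64 (7.37 to 7.92), and the high mobility group gene Hmgb2 at 715 and 51.3 CPM. Of the tubulin and microtubule list 7 of 8 counted members were called higher, 4 of them, Tubb5 included, counted only through cluster 9 and so bound to be higher. Among them were Stmn1, which takes microtubules apart, at 22.3-fold (20.9 to 23.9) and the tubulin Tubb5 at 21.9-fold (20.1 to 24.0) in library 5. All 22 genes of the splicing and nuclear transport list were above expectation in library 5, 10 of them past 2-fold in both sets of libraries and 2 of those counted only through cluster 9, with the small GTPase Ran at 3.82-fold (3.54 to 4.13) and the importin Kpna2 at 22.4-fold (14.6 to 34.8).

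Regulators of the cycle split. Of 12 counted members 9 were called higher, beside 8.81% over all, but all 9 met the minimum only through cluster 9 and so had to be higher. Among them were Foxm1 at 122-fold (61.6 to 274), E2f1 at 13.8-fold (10.5 to 18.2), the CDK subunit Cks1b at 32.0-fold (25.5 to 40.3) and Skp2, which marks the inhibitor p27 for destruction, at 5.86-fold (4.15 to 8.20) in library 5. The exception was Ccnd1, or cyclin D1, which carries growth signals into G1. It had 28.3, 104, 124 and 55.9 CPM in cluster 9 of libraries 1, 2, 5 and 6, against 138, 188, 264 and 159 CPM in cluster 3, and was lower in each library, at 0.468 times in library 5 (0.414 to 0.528). Its call was lost with cells thinned to 2000 UMIs and without library 1, where the log2 ratios were -1.41 and -1.09. Ccnd3 was near its expected level in library 5 at 0.877-fold, and no UMI of Ccnd2 was seen in cluster 9 of these libraries. Of the inhibitor list, Cdkn2c, Cdkn2d and Cdkn3, each counted only through cluster 9, were called higher, at 12.5-fold (10.8 to 14.4), 15-fold (12.1 to 18.7) and 62.8-fold (44.5 to 90.8), and none of the 9 counted members lower. Cdkn1a, the p53 target p21, had too few UMIs to count in the small libraries and stood at 17.2 CPM in cluster 9 and 5.32 CPM in cluster 3 of library 5.

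The proximal tubule genes were present throughout, mostly at lower levels than in cluster 3. The 15 proximal tubule markers summed to 10001, 12285, 10091 and 11911 CPM in cluster 9 of libraries 1, 2, 5 and 6, against 26600, 32713, 15701 and 26707 CPM in cluster 3. Of these sums Kap alone gave 396, 3446, 1016 and 5145 CPM in cluster 9, and 10287, 16749, 1628 and 10746 CPM in cluster 3. In library 5 the sum of the 15 markers was 2764, 2941, 2023 and 1298 CPM in clusters 4, 5, 6 and 7 (other tubule and duct segments) and 1098 CPM in cluster 16. It was higher in clusters 1, 11 and 14, at 7292, 4631 and 4282 CPM. Of the list of transport and reabsorption genes, 29 of 30 were below expectation in library 5, and none of 28 counted was called higher and 4 lower, beside 8.81% and 1.14% over all. Of those 4, Slc5a8 and Slc7a13 met the minimum only through cluster 3 and so could only be called lower. The median log2 ratio of the list was -0.62 in library 5 and -0.77 in the others, where that of all counted genes was 0.138 and 0.245. Slc34a1 had 1300, 1487, 1566 and 615 CPM in cluster 9 of libraries 1, 2, 5 and 6, against 2815, 2357, 2526 and 2656 CPM in cluster 3. Lrp2, or megalin, the receptor that takes up filtered protein, was nearer to its cluster 3 level, with 571 CPM in cluster 9 and 679 CPM in cluster 3 of library 5, a ratio of 0.84 (0.793 to 0.889).

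Enzymes showed the same shift, with 32 of 33 below expectation in library 5. No counted member was called higher and 4 of 26 lower, beside 8.81% and 1.14% over all counted genes. Those 4 were Pck1, which controls gluconeogenesis, Cyp4b1, a cytochrome P450, Acy3, an aminoacylase, and Ttc36, at 0.444-fold (0.420 to 0.470), 0.472-fold, 0.411-fold (0.359 to 0.469) and 0.330-fold (0.305 to 0.356). Pck1 had 56.5, 219, 559 and 168 CPM in cluster 9, against 853, 550.0, 1258 and 1301 CPM in cluster 3. Gpx3, the secreted glutathione peroxidase, had 28422, 19936, 20437 and 27512 CPM in cluster 9, against 21333, 17551, 24140 and 23098 CPM in cluster 3, so that it was higher in 3 libraries and lower in library 5. Hnf4a, the transcription factor that maintains proximal tubule identity, was within counting error of its cluster 3 level in library 5 at 0.962-fold (0.883 to 1.05).

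Genes of the last proximal segment had the lowest summed ratio of the proximal tubule lists in each library. The segment 3 list summed to 84.8, 300.0, 224 and 503 CPM in cluster 9 of libraries 1, 2, 5 and 6, against 1067, 1202, 427 and 1507 CPM in cluster 3. That is 0.0795, 0.249, 0.525 and 0.334 times the cluster 3 level, resting on 3, 26, 509 and 9 UMIs. Of 5 counted members 3 were lower, beside 1.14% over all counted genes: the transporters Slc22a30 and Slc7a13, and the lipid flippase Atp11a. Slc7a13 met the minimum only through cluster 3 and so could only be called lower. Slc22a30 had 25.1 CPM in cluster 9 and 98.9 CPM in cluster 3 of library 5, a ratio of 0.254 (0.192 to 0.330), and 7 UMIs in the other libraries where 49.5 were expected. The segment 1 list, which includes the glucose transporter Slc5a2 and the bicarbonate transporter Slc4a4, had ratios of 1.40, 1.16, 0.714 and 0.634, with no member called either way. Other genes among the 15 lowest of those called were Dnase1, the related acetyltransferase genes Nat8 and Cml1, between which reads may be split, the carboxylesterase Ces1f, and the antisense transcript Hnf4aos, which shares its locus with Hnf4a; where counting did not use strand its reads cannot be told from those of Hnf4a. Hbb-bs, a haemoglobin gene, was the lowest of all, with no UMI in cluster 9 of library 5 where 66.8 were expected, and 2 in the other libraries where 37.5 were. Cluster 3 had 4279 UMIs of Hbb-bs in library 2 but 7 and 1 in libraries 1 and 6. Its call was lost without library 2. Hbb-bs, Ces1f and Hnf4aos met the minimum only through cluster 3 and so could only be called lower.

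**Figure D4:**
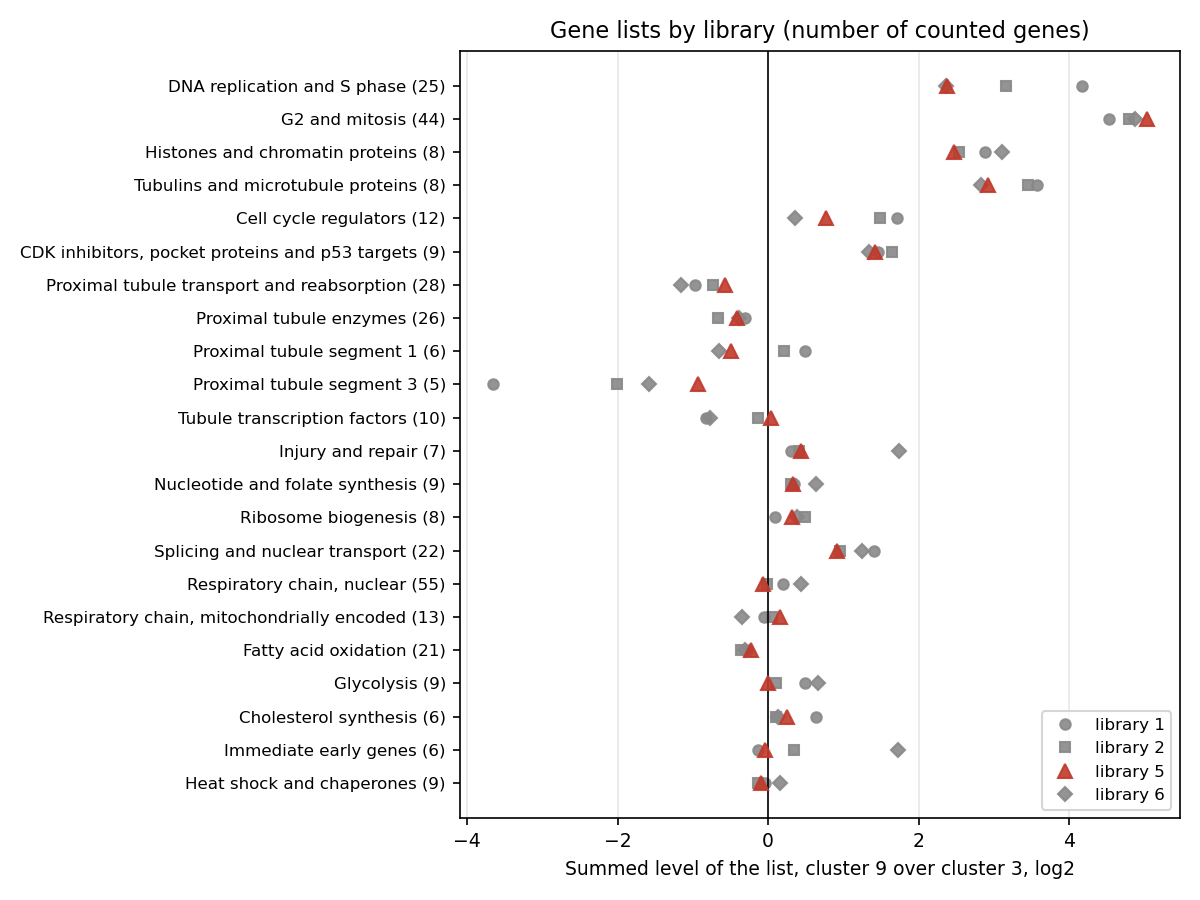
Summed level of each gene list with 5 or more counted genes, as the log2 ratio of cluster 9 over cluster 3, with each symbol a library and library 5 in red; the number of counted genes stands in parentheses. Cell cycle lists lie right of 0 in each library, the 2 proximal tubule function lists and the segment 3 list left of 0, and segment 1 on both sides.

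In the lists of energy metabolism no counted member was called, beside 8.81% higher and 1.14% lower over all counted genes. None of 55 nuclear genes of the respiratory chain, 13 mitochondrially encoded ones, 21 of fatty acid oxidation and 9 of glycolysis was called either way. Their median log2 ratios in library 5 were -0.07, 0.14, -0.15 and 0.01, and those of the mitochondrially encoded genes and of glycolysis changed sign under other scalings. Of the 9 counted genes of nucleotide and folate synthesis none was called, and the highest, Dctpp1, stood at 1.95-fold in library 5 (1.72 to 2.19). Of the 9 counted heat shock genes only Hsp90aa1 was called, at 2.90-fold (2.71 to 3.10). Of the 6 counted immediate early genes only Klf6 was called, at 2.05-fold (1.66 to 2.52). Klf6 met the minimum only through cluster 9 and so could only be called higher. Its call was lost under TMM and median-ratio scaling, with thinned cells and without library 2.

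Of the injury and repair list most members had too few UMIs to compare. Havcr1 (kidney injury molecule 1), Lcn2, Vim and Krt20 had no UMI in cluster 9 of libraries 1, 2, 5 and 6, but at most 0.894 UMIs of each were expected in library 5, so these zeros show no difference. Sox9, a factor of regenerating tubules, had 1.32 CPM in cluster 9 and 0.158 CPM in cluster 3 of library 5, too few to count. The median log2 ratio of the counted members was 0.66 in library 5 and 1.12 in the others. Of 26 listed injury genes 7 were counted, 2 called higher and none lower, beside 8.81% and 1.14% over all counted genes. The 2 were the keratin Krt8 at 5.35-fold (4.72 to 6.07) and S100a10 at 2.51-fold (2.20 to 2.86). The call of S100a10 was lost under TMM scaling and without library 6. Krt8 had 141, 127, 162 and 280 CPM in cluster 9, against 40.7, 34.5, 30.2 and 34.2 CPM in cluster 3. Of the 10 counted tubule transcription factors only Sox4 was called, at 4.87-fold (3.62 to 6.48) in library 5. In libraries 1, 2 and 6 it had 5 UMIs where 1.16 were expected. Sox4 met the minimum only through cluster 9 and so could only be called higher. Its call was lost with thinned cells and without library 2 or 6. Of 12 juvenile and imprinted growth genes 2 were counted and none was called, and Igf2 had 0.441 CPM in cluster 9 of library 5.

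Single cells of cluster 9 held UMIs of both programmes. With each cell thinned to 2000 UMIs, which left 473 of the 552 cells of library 5, 452 cells (95.6%, Wilson 93.3 to 97.1) had a UMI of the cycling markers and of the proximal tubule markers, and 99.1% did before thinning. In cluster 3 of that library the share was 4.57%, in cluster 5, which carries distal tubule markers, 2.34% and in cluster 14, which carries T lymphocyte markers, 11%. At least 1 UMI of the proximal markers was found in 99.2% of cluster 9 cells, but also in 75% of cluster 5 and 88.2% of cluster 14. Cycling marker UMIs were found in 4.57%, 2.83% and 11.8% of cells of clusters 3, 5 and 14. The joint shares in these clusters thus mostly follow the cycling markers. The median depths before thinning were 3738.5 UMIs in cluster 9, 2905 in cluster 3, 3530.0 in cluster 5 and 2097 in cluster 14. In libraries 1, 2 and 6, 27 of 29 cluster 9 cells had both. There 94.6% of cluster 5 and 97.9% of cluster 14 cells had a proximal marker UMI. The thinned cells of library 5 held a median of 19 proximal marker UMIs in cluster 9 (5th to 95th percentile 8 to 35.4), against 29 in cluster 3 (15 to 52). The median was 2 in cluster 5 (0 to 24) and 3 in cluster 14 (0 to 30, upper quartile 17.25), so these spreads overlap that of cluster 9. In libraries 1, 2 and 6 the medians were 19 in cluster 9, 42 in cluster 3, 5 in cluster 5 and 8 in cluster 14. The source of the proximal marker UMIs in clusters 5 and 14, such as free RNA or mixed droplets, was not tested. Of the 473 cells 338 (71.5%) lay at or above the 5th percentile of cluster 3, and 12 (2.54%) at or below the median of cluster 5. Their G2 and mitosis UMIs had a median of 15 in cluster 9 and 0 in cluster 3. At least 10 such UMIs were found in 307 cells (64.9%) of cluster 9, against 1 of 5912 cells in cluster 3.

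**Figure D5:**
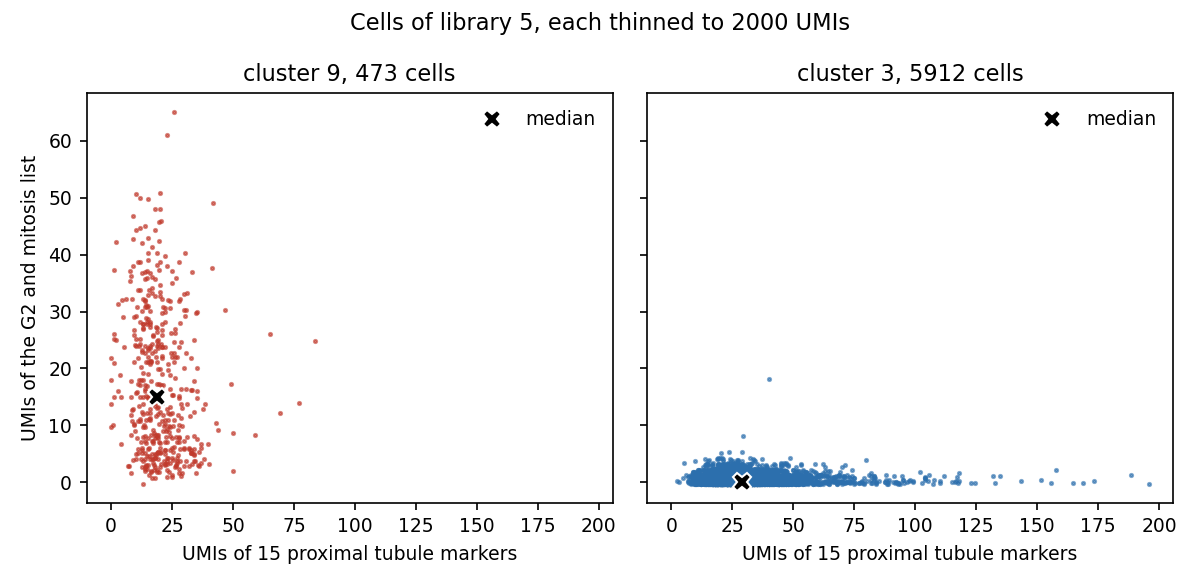
Cells of library 5 in cluster 9 (left) and cluster 3 (right), each thinned to 2000 UMIs, by UMIs of the 15 proximal tubule markers (x axis) and of the G2 and mitosis list (y axis), with a small random offset and the median as a cross. The median cell has 19 and 15 UMIs in cluster 9, and 29 and 0 in cluster 3.

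In most cluster 9 cells of library 5 the G2 and mitosis list, with 60 genes, held more UMIs than the S phase list, with 39. The lists differ in length, so this does not place a cell in a phase. In thinned cluster 9 cells of libraries 1, 2 and 6 the medians were 10 mitosis and 5 S phase UMIs. Mitosis UMIs exceeded S phase UMIs in 446 of the 473 cells of library 5, the reverse held in 20, and 7 had equal numbers. Across cells the Spearman correlation was 0.317 between S phase and mitosis UMIs and -0.207 between mitosis and proximal marker UMIs; cells of the same library share depth and free RNA, so these values only describe it. With the cells split by mitosis UMIs into 166 low, 153 middle and 154 high ones, the median proximal UMIs were 22, 19 and 17 and the median S phase UMIs 1, 2 and 3, where the fixed total of 2000 ties the lists to each other.

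A small share of cluster 9 had the genes of another segment. In 21 of the 473 cells (4.44%) the markers of another tubule segment held more UMIs than those of the proximal tubule, against 1 of 5912 cells of cluster 3. In 16 of the 21 the distal convoluted tubule led, in 2 the loop of Henle, in 2 principal cells and in 1 intercalated cells. Their median of mitosis UMIs was 19, against 14 in the other cells. Distal convoluted markers summed to 696 CPM in cluster 9 and 224 CPM in cluster 3 of library 5, while libraries 1, 2 and 6 had 3, 15 and 2 UMIs of them. Of the 3 counted members the distal salt cotransporter Slc12a3 was called, beside 8.81% higher over all counted genes. It met the minimum only through cluster 9 and so could only be called higher. Slc12a3 had 220.0 CPM in cluster 9 and 47.8 CPM in cluster 3 of library 5 and 6 UMIs where 2.67 were expected elsewhere. Its call was lost under 5 settings, among them leaving out the cells led by another segment, where the log2 ratio was 1.52. The single cell of library 7 was led by distal markers too, with 50 UMIs of distal markers, 1 of proximal markers, 27 of the S phase list and 19 of the mitosis list. Leaving out the 24 cells in which another segment led before thinning gave 359 genes higher and 42 lower. Of markers outside the tubule, the endothelial list summed to 7.49 CPM in cluster 9 and 3.54 CPM in cluster 3 of library 5. The podocyte list summed to 3.09 and 1.73 CPM and the leukocyte list to 3.53 and 3.15 CPM. The T lymphocyte list summed to 1.32 and 0.827 CPM and the B lymphocyte list to 1.32 and 0.788 CPM. Nphs1, Flt1, Cd3e and Cd79b were at 0 in all 601 cells, but other members of their lists had UMIs. In library 2 the leukocyte and B lymphocyte lists had 3 UMIs each in cluster 9 (34.6 CPM, against 2.62 in cluster 3). Libraries 1 and 6 had none of either. The macrophage and monocyte list, at 56.0 CPM in cluster 9 and 30.6 CPM in cluster 3 of library 5, and the neutrophil list, at 25.6 and 4.1 CPM, were higher in cluster 9. C1qa, C1qc and Ms4a6c were at 0, but the other members of the macrophage list had UMIs. In libraries 1, 2 and 6 cluster 9 had 0, 6 and 2 UMIs of the macrophage list and none of the neutrophil list, and the part of such cells in the results was not tested.

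Against cluster 16, the other cluster with cell cycle genes, cluster 9 had a smaller share of S phase and histone transcripts. Cluster 16 held 42 cells with leukocyte and natural killer markers, of which libraries 2, 5 and 6 had 7, 18 and 13. The summed S phase level of cluster 9 was 0.498, 0.544 and 0.284 times that of cluster 16 in these libraries, and the mitosis level 0.660, 0.686 and 0.682 times. The histone gene Hist1h2ap had 45.0 CPM in cluster 9 and 2187 CPM in cluster 16 of library 5. Mki67 had 570 CPM in cluster 9 and 430 CPM in cluster 16 of library 5 (ratio 1.33, 0.997 to 1.80), whereas Lockd was higher in cluster 9 in each of the 3 libraries, at 3.74, 3.55 and 4.05 times. The D cyclins differed: in library 5, Ccnd1 had 281 UMIs in cluster 9 and 2 in cluster 16, and Ccnd2 had 0 in cluster 9 and 37 in cluster 16. Median UMIs per cell were 3738.5 in cluster 9 and 5466.5 in cluster 16 of library 5.

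Recurring barcodes and doublet scores were examined as follows. Of the barcodes, 974 occurred in several libraries, among them those of 19 cluster 9 cells of library 5 and 2 of library 2, and no barcode was shared between cluster 9 cells. Without all cells whose barcode recurred, 354 genes were higher and 51 lower. The Scrublet caller marked 43 of 43745 cells (0.0983%) and so did not work, so the top 6% by score within every library were left out as an alternative. In library 5 these took 6.16% of cluster 9 cells and 1.33% of cluster 3 cells, with median scores of 0.0655 and 0.0495, and without them 379 genes were higher and 47 lower. The part of mixed droplets in the distal markers was not tested.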

How the data were processed

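Single-cell UMI counts of 7 mouse kidneys were deposited by the authors as a single matrix of whole-number counts with a cluster number per cell. The submitters' processing notes name Cell Ranger 1.3, the aligner STAR and the mm10 build (GRCm38.p4); how cells were filtered and clustered is not given in the sources used here. The design text states 57979 cells and the matrix holds 43745 with 707 to 15000 UMIs each. Library totals ran from 4217169 to 49997616 UMIs, and the number of cells of cluster 9 limits the precision outside library 5.

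Raw counts were summed by library and cluster in Python 3.11.15 (numpy 2.4.6, scipy 1.17.1, pandas 2.3.3). Expected UMIs are the cluster 3 profile scaled to the cluster 9 total of the same library, and intervals of ratios are exact 95% intervals of a ratio of Poisson rates. Log2 ratios use a pseudocount of 0.5 UMI. CPM are those of summed counts. Doublet scores are from Scrublet in scanpy 1.11.5 (expected rate 0.06, 30 components) and TMM factors from edgeR 4.0.16 in R 4.3.3; the calling step was tested on simulated data. Cells were thinned to 2000 UMIs without replacement. Named genes are the 4 marks, the 15 called genes with the most extreme ratio per direction and at least 50 UMIs, and members of 23 gene and 18 marker lists, of which up to 5 with the highest level may be named. Members and lists were chosen with earlier results of these data known. With no label linking libraries to mice, genotypes were not compared. All columns of cells were used. Some genes that the rule names, and a line's label, are not reported here.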

Additional observations from a re-analysis of the deposited data

Results flagged for a closer look

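Chance flags about 1 in 20 groups by the gap to the nearest library, and 36 measures were examined. Library 5 lay far above the other 6 libraries in the share of cells in cluster 9 (3.9%, next 0.553%), in cluster 9 cells per 100 cluster 3 cells (7.17, next 0.796) and in the share of cells of clusters 2 to 9 with 3 or more cycling genes (3.6%, next 0.416%). These 3 values are given as a description, since library 5 was singled out for comparison because it holds most of these cells. Among the 4 libraries compared, it also lay apart in the cluster 3 levels of Top2a (1.73 CPM, next 0.234) and Lockd (30.6 CPM, next 4.09). Library 1 lay apart in the ratio of median UMIs per cell of cluster 9 over cluster 3 (2.37, next 1.29). Library 6, with 6 cluster 9 cells, lay apart in 3 summed ratios of cluster 9 over cluster 3: the injury list (3.33, next 1.35), the immediate early list (3.31, next 1.27) and nucleotide synthesis (1.55, next 1.27), resting on 63, 23 and 23 UMIs in cluster 9.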

How the results depend on the processing

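The number of genes called higher and lower (377 and 49) stayed within 1.5 times under exclusion of mitochondrially encoded genes from totals, median-ratio scaling of the higher calls, cluster 3 cells matched in UMIs, removal of high doublet scores, recurring barcodes or cells led by another segment, and a minimum of 50 UMIs. It moved beyond that as follows. Median-ratio scaling gave 74 lower. TMM factors gave 223 lower and 251 higher. Thinning gave 181 higher and 38 lower of 2045 counted genes. Leaving out library 1, 2 or 6 gave 164 to 351 higher and 31 to 48 lower, and only the lowest of each, without library 2, lay beyond 1.5 times. A threshold of 1.5-fold gave 724 and 218, and of 4-fold 165 and 6. With at least 1 UMI in library 5 and no minimum elsewhere the counts were 991 and 462, and in library 5 alone 1039 and 158. Libraries 1, 2 and 6 alone, added after the data were seen, gave 137 and 90 of 1076 counted genes. Thinning, the changed minimums and left-out libraries change how many genes are counted; for TMM the cause was not tested. The share of cells in cluster 9 was 0.165% without library 5, against 1.37%. The share of cluster 9 cells with both programmes was 87.9% at 1000 UMIs, 99.1% unthinned and 88.4% with 2 UMIs of each list, against 95.6%. The log2 ratio of UMIs per cell was 0.253 to 0.604 with each library left out, and genes per cell gave 0.475. Of 139 called genes named or listed, 75 lost their call under at least 1 setting, and none changed sign. Clusters were compared within each library throughout, so the comparison is paired by library. Depth limits libraries 1, 2 and 6, where a gene rests on few UMIs.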

Other observations

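Most called genes belonged to no list: 268 of the 377 higher and 39 of the 49 lower. The genes named in this paragraph were chosen after their values were seen. Ezh2, the histone methyltransferase of the Polycomb complex, had 198, 115, 90.4 and 112 CPM in cluster 9 of libraries 1, 2, 5 and 6, against 10.1, 6.75, 7.68 and 6.95 CPM in cluster 3. Dnmt1, which copies DNA methylation at replication, was 4.12-fold higher in library 5 (2.98 to 5.64). The lamina genes Lmnb1 and Tmpo were 23.4-fold (17.7 to 31.0) and 9.38-fold (8.46 to 10.4) higher. Ptma, prothymosin alpha, had 2995, 2293, 2394 and 2349 CPM in cluster 9, against 839, 792, 837 and 683 CPM in cluster 3, and Calm2, a calmodulin gene, 735, 553, 652 and 671 CPM against 117, 120.0, 108 and 104 CPM. For both genes the values of cluster 9 lay above all those of cluster 3. Cox6b2, a cytochrome oxidase subunit best known from testis, was 4.40-fold higher in library 5 (4.04 to 4.79) with 20 UMIs where 3.15 were expected in the other libraries. Ezh2, Dnmt1, Lmnb1 and Cox6b2 were among the genes that met the minimum only through cluster 9, and so could only be called higher.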
